A study of Homo sapiens with 3 samples.

Results

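The genes described are 10 genes of iron storage, uptake, export, sensing and haem breakdown: FTL, FTH1, NCOA4, TFRC, SLC11A2, SLC25A37, SLC40A1, ACO1, IREB2 and HMOX1. They were chosen by function from 58735 annotated genes, and all 10 identifiers were found in the tables; 9 passed a filter of a mean of at least 1 FPKM (a read count scaled for exon length and library size), and HMOX1 did not. RNA was sequenced from human cells labelled KG1a, a leukaemia line, after infection with lentivirus. The control group is 1 library of cells with a shCtrl hairpin, labelled wild type, and the TRAF7 knockdown group is 2 libraries of cells with a shTRAF7 hairpin, here called knockdown 1 and knockdown 2. All 3 libraries share a batch label. Whether the knockdown pair came from separate cultures or hairpins is not stated. The p-values therefore rest on the spread within this pair, pooled over genes, which may be technical.

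Cells take up iron mainly as transferrin bound to the transferrin receptor and keep what is not in use inside ferritin, a shell built of light and heavy chains. Iron regulatory proteins sense the cytosolic supply: when iron is scarce they bind hairpins in messenger RNA, the iron-responsive elements, and a hairpin before the coding sequence then blocks translation whereas hairpins after it protect the transcript from decay. Red cell precursors draw the most heavily on this system, because haem synthesis in their mitochondria consumes the iron. Transcript levels, which are what was measured, do not report the translational arm of this control.

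The hairpins are shown because they are the shared control sequence of storage, export and uptake transcripts. Protein-coding transcripts were searched on the sense strand for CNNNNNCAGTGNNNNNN in which the 5 bases on either side of the 6-base loop can pair (G to U pairs allowed). The search finds no element with another loop or with an unpaired base among those 5 pairs. A gene without a match, SLC11A2 among them, may therefore still hold an element, and TFRC may hold more. Of the 10 genes, 4 held a match, printed from the GENCODE release 29 transcripts 5′ to 3′ with the loop in capitals and 6 bases on each flank.
FTL: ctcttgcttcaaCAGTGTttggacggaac
FTH1: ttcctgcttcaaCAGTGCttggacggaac
SLC40A1: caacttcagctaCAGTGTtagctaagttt
TFRC a: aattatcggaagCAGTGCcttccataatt
TFRC b: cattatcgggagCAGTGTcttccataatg
TFRC c: ctgtatcggagaCAGTGAtctccatatgt
TFRC d: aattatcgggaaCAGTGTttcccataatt

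The FTL, FTH1 and SLC40A1 elements lie in the 5′ UTR in exon 1, and the TFRC elements lie in the 3′ UTR (GRCh38). FTL has its element at chr19:48965335-48965363 on the plus strand, FTH1 at chr11:61967574-61967602 on the minus strand, and SLC40A1 at chr2:189580661-189580689 on the minus strand. Those of TFRC, all on the minus strand, are at chr3:196050979-196051007 (a), chr3:196050575-196050603 (b), chr3:196050510-196050538 (c) and chr3:196050463-196050491 (d). The FTL and FTH1 elements are identical at 26 of 29 bases, and those of FTL and SLC40A1 at 14 of 29. Among 19659 protein-coding genes scanned, 0.183% held a match in a 5′ UTR and 0.671% in a 3′ UTR. In FTH1 the element was in 7 of 8 protein-coding transcripts, in TFRC in 3 of 4 and in SLC40A1 in 1 of 5, and gene-level values do not separate these transcripts. A match is a description of letters, not of binding, and the lack of one does not show that an element is absent.

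TRAF7 itself, the hairpin target, stood at 46.5, 15.6 and 18.3 FPKM in the control, knockdown 1 and knockdown 2, the order used throughout. Assigned reads were between 16014485 and 16254461 per library. The cell label did not hold against its defining marker: CD34, the surface antigen KG1a is known for, had 0, 1 and 10 reads. FLT3, another immature myeloid marker, had 0 reads in every library, whereas 7 of the 10 markers of KG1a and immature myeloid cells averaged at least 1 FPKM. Erythroid markers were present in all 3 libraries, control included, with 14 of 20 averaging at least 1 FPKM. They included the Rh-associated glycoprotein RHAG (208.1, 228.1 and 229.0 FPKM), the transcription factors GATA1 (128.5, 104.5 and 115.6) and KLF1 (56.5, 61.7 and 55.8) and the transferrin receptor TFR2 (33.5, 32.2 and 31.3). The cells are therefore called cells labelled KG1a. Macrophage markers, of cells that recycle iron, summed to between 0.185 and 0.255 FPKM, with MARCO, CD68, C1QA, C1QB and C1QC at 0.

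Ferritin light chain transcript, already among the most abundant of these cells, was higher in both knockdown libraries, while the heavy chain transcript was level. FTL (ENSG00000087086, chromosome 19, positions 48965301 to 48966878, plus strand) encodes the light chain, which promotes iron mineral formation in the shell. The control library had 1694 FPKM (95% Poisson interval 1673 to 1715, from 25115 reads). Knockdown 1 had 2639.6 FPKM (interval 2612 to 2667, from 36070 reads), and knockdown 2 had 2726 FPKM (interval 2699 to 2753, from 38925 reads). Both knockdown values were above the control and close to each other, at 1.56 and 1.61 times its level. Intervals here and below cover counting error only. FTL ranked 12th of 12640 genes tested by mean level and took 0.157%, 0.222% and 0.239% of assigned reads. In bulk RNA, a change in the share of cells of a type and a change in RNA per cell cannot be told apart.

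The fitted difference of FTL on the log2(FPKM + 1) scale was 0.66 ± 0.07 (SE), with limma's unadjusted p = 7.31e-05 and an adjusted p of 0.206 over all genes tested. No gene passed an adjusted 0.05 in that fit (0 of 12640, 0%), so 0 of the 9 iron genes tested did, and 1161 genes had an unadjusted p under 0.05. The fit has 1 residual degree of freedom, which comes from the knockdown pair alone, and assumes that the lone control varies as that pair does. Limma draws each gene's variance toward a value shared over genes of like level, and each SE given is the result. That shared value weighed as 4.74 degrees of freedom in limma and 35.5 in the limma-voom fit below. It therefore outweighed the gene's own spread. In limma-voom on whole reads recovered from the FPKM values, FTL passed as higher (adjusted p = 0.0163), where 0.206% of 15034 genes were called higher. Limma also called FTL higher with a mean of at least 5 FPKM as the filter (adjusted p = 0.00912; 0.0422% of genes called higher) and among protein-coding genes alone (adjusted p = 0.00175; 0.0606%). Over all the settings that gave a p, limma's adjusted p for FTL ran from 0.00175 to 0.649, and its log2 fold change was above 0 in 14 of 14 alternatives (0.48 to 0.69). Filter, trend and pseudocount settings could not turn that sign, since both knockdown libraries were above the control. The other scalings could, and gave 0.61 (median-of-ratios), 0.56 (all assigned reads) and 0.48 (quantile).

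FTH1 (ENSG00000167996, chromosome 11, 61959718 to 61967660, minus strand) encodes the heavy chain, which holds the ferroxidase site that oxidises iron on entry. It stood at 277.9 FPKM in the control, with a counting interval of 272.4 to 283.6 from 9526 reads. The value was 278.5 for knockdown 1 (interval 272.7 to 284.4) and 284.6 for knockdown 2 (interval 278.8 to 290.4). The counting intervals of all 3 libraries overlapped. Its fitted log2 difference was 0.02 ± 0.12 (SE; limma adjusted p = 0.973), and its sign turned to below 0 under each of the 3 other scalings tried (median-of-ratios factors recomputed on the genes tested −0.03, all assigned reads −0.09, quantile −0.22). FTL stayed above 0 under the same scalings, with a smallest value of 0.48 under quantile normalization.

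The ratio of FTL to FTH1 transcript per unit length was thus 6.10 for the control, 9.48 for knockdown 1 and 9.58 for knockdown 2, with exact binomial 95% intervals of 5.95 to 6.24, 9.26 to 9.70 and 9.37 to 9.80. This ratio does not depend on library scaling, and the control lay below both knockdown libraries. Its level does depend on the lengths used, which join all annotated exons of a gene. In reads without length scaling it was 2.64, 4.10 and 4.14. Summed ferritin transcript was 1972, 2918 and 3011 FPKM. With 1 library against 2, an exact permutation test of a single value has 3 arrangements and cannot give a p below 0.333, so the ratio was not tested. The ratio rests on how FTH1 was counted, and the part of that in its difference between libraries was not tested: 1267 of its 2030 exon bases overlap exons of BEST1 on the opposite strand, and the counting tool and its strand setting are not given in the sources used here. BEST1, a chloride channel gene, had 102, 20 and 39 reads.

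Ferritin genes have many processed copies in the genome, and reads can be split between a gene and a near-identical copy. The annotation holds 16 FTL pseudogenes, 6 of them with a read in any library, and 25 FTH1 pseudogenes, 15 with a read. Reads on the FTL copies came to 26, 24 and 37, at most 0.104% of those on FTL, and those on the FTH1 copies to 213, 250 and 268, at most 2.85% of those on FTH1. Copies averaging at least 10 reads were FTH1P1, FTH1P2, FTH1P3, FTH1P7, FTH1P8, FTH1P23, FTLP3 and FTLP12, of which FTH1P7 had the most (53, 80 and 79 reads). With the reads of all annotated copies added, the log2 fold changes were 0.66 for FTL and 0.03 for FTH1. Reads dropped for matching more than 1 place would not appear in these counts, and how such reads were handled is not given.

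**Figure D1:**
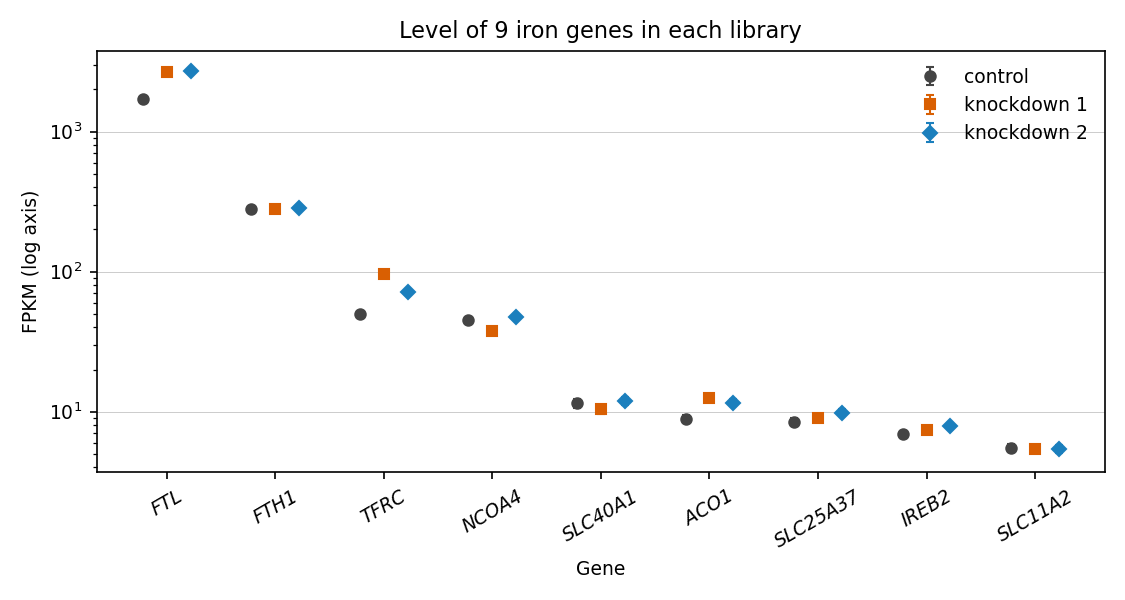
Level in FPKM (log axis) of the 9 iron genes with reads, in order of mean level, for the control (circles), knockdown 1 (squares) and knockdown 2 (diamonds); bars are 95% Poisson intervals, smaller than most symbols. The FTL points lie at 1694, 2639.6 and 2726 FPKM, FTH1 is level near 280, and HMOX1, at 0 in every library, is not drawn.

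NCOA4, the cargo receptor that delivers ferritin to lysosomes for breakdown, did not move one way. The gene (ENSG00000266412, chromosome 10, 46005088 to 46030714, minus strand) was at 45.1, 37.8 and 47.2 FPKM, from 3108, 2401 and 3134 reads. Knockdown 1 lay below the control and knockdown 2 slightly above it, so the groups overlapped. Its fitted log2 difference was −0.09 ± 0.20 (SE; limma adjusted p = 0.918).

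The transferrin receptor transcript was also above the control in both knockdown libraries, but the pair differed in how far. TFRC (ENSG00000072274, chromosome 3, 196027183 to 196082189, minus strand) encodes the receptor that carries transferrin-bound iron into the cell. Its 6593 control reads gave 49.5 FPKM (interval 48.3 to 50.7), its 11748 reads with knockdown 1 gave 95.7 (93.98 to 97.5) and its 9232 reads with knockdown 2 gave 72.0 (70.5 to 73.5). Knockdown 1 was at 1.93 times the control and knockdown 2 at 1.45 times, and their counting intervals did not overlap. The fitted log2 difference was 0.73 ± 0.21 (SE), with limma's adjusted p = 0.455 (0.0375 to 0.649 over all settings, limma-voom included). By limma-voom it passed as higher (adjusted p = 0.0375), which made 2 of the 9 iron genes tested called higher by that method, beside 0.206% of all genes.

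Set against ferritin, the receptor transcript was higher in knockdown 1 and near the control in knockdown 2. TFRC stood at 2.51 per 100 of ferritin transcript (FTL plus FTH1, all in FPKM) for the control, 3.28 for knockdown 1 and 2.39 for knockdown 2. The interval of knockdown 1 (3.21 to 3.35) lay above that of the control (2.4449 to 2.58). That of knockdown 2 (2.34 to 2.4446) ended at about the lower edge of the control's. These intervals were computed from ferritin reads not weighted by exon length, so a gap that small does not separate knockdown 2 from the control. In reads without length scaling, TFRC stood at 19.03, 26.18 and 19.11 per 100 ferritin reads, with knockdown 2 slightly above the control.

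SLC11A2 (ENSG00000110911, chromosome 12, 50979401 to 51028566, minus strand) encodes DMT1, the transporter that moves ferrous iron out of the endosome. It was at 5.55, 5.41 and 5.43 FPKM, from 950, 855 and 895 reads. These 3 values lay within each other's counting intervals, and the fitted log2 difference was −0.03 ± 0.17 (SE; limma adjusted p = 0.973). SLC25A37 (ENSG00000147454, chromosome 8, 23528805 to 23575463, plus strand) encodes mitoferrin-1, the carrier of iron into the mitochondria of red cell precursors. It was at 8.48, 9.01 and 9.83 FPKM, both knockdown values being above the control, with a fitted log2 difference of 0.13 ± 0.18 (SE; limma adjusted p = 0.844). The interval of knockdown 1 (8.49 to 9.54) overlapped that of the control (8.004 to 8.98), and the interval of knockdown 2 (9.30 to 10.4) did not.

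SLC40A1 (ENSG00000138449, chromosome 2, 189560579 to 189583758, minus strand) encodes ferroportin, the exporter of cellular iron. Its levels were 11.5, 10.4 and 11.9 FPKM, from 838, 700 and 838 reads. The knockdown libraries lay on either side of the control, and the fitted log2 difference was −0.04 ± 0.19 (SE; limma adjusted p = 0.967).

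Of the sensors, ACO1 was higher in both knockdown libraries and IREB2 by less. ACO1 (ENSG00000122729, chromosome 9, 32384603 to 32454769, plus strand) encodes iron regulatory protein 1, which is a cytosolic aconitase when it carries an iron-sulfur cluster and binds iron-responsive elements when it does not. It was at 8.94, 12.5 and 11.6 FPKM, with counting intervals of 8.43 to 9.48, 11.9 to 13.2 and 11.0 to 12.3. Both knockdown intervals lay above that of the control. The fitted log2 difference was 0.39 ± 0.18 (SE), which did not pass by limma (adjusted p = 0.566) or by limma-voom (0.379). IREB2 (ENSG00000136381, chromosome 15, 78437431 to 78501456, plus strand) encodes iron regulatory protein 2, which is degraded when iron is plentiful. It was at 6.90, 7.38 and 7.90 FPKM, with a fitted log2 difference of 0.13 ± 0.18 (SE; limma adjusted p = 0.849).

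HMOX1 (ENSG00000100292, chromosome 22, 35380361 to 35394214, plus strand), the inducible haem oxygenase that frees iron from haem, had 0 reads in all 3 libraries. At these depths a count of 0 allows up to 3 reads, or 0.0739, 0.0801 and 0.0767 FPKM. Its neighbours on the chromosome were counted, MCM5 at 22.9, 37.1 and 32.1 FPKM with 2835, 4234 and 3826 reads, and TOM1 with 533, 548 and 556 reads. The constitutive enzyme HMOX2 was at 10.5, 13.2 and 12.4 FPKM, with a log2 difference of 0.26 ± 0.18 (SE; limma adjusted p = 0.685).

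**Figure D2:**
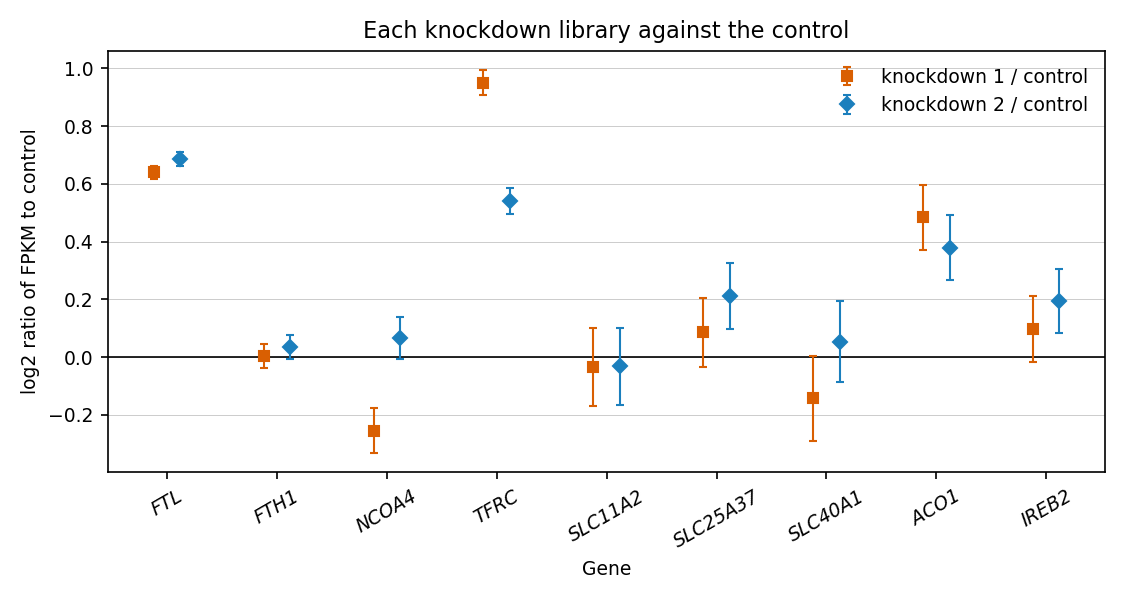
log2 ratio of FPKM to the control for each knockdown library (knockdown 1 squares, knockdown 2 diamonds), genes in the order storage, uptake, export and sensing; bars are 95% exact binomial intervals of the read ratio, which cover counting error only. FTL, TFRC and ACO1 lie above 0 in both libraries, FTH1 and SLC11A2 lie near 0, and NCOA4 and SLC40A1 lie on either side of it.

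In order of mean level per length the genes ran FTL, FTH1, TFRC, NCOA4, SLC40A1, ACO1, SLC25A37, IREB2 and SLC11A2. The ranges over libraries of SLC40A1 (10.4 to 11.9 FPKM) and ACO1 (8.94 to 12.5) overlapped, as did those of ACO1 and SLC25A37 (8.48 to 9.83). Each other neighbouring pair had ranges that did not overlap.

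Of the 9 genes tested, 6 were higher in both knockdown libraries and 1 was lower in both, with a median log2 difference of 0.13. Over all genes tested 42.5% were higher in both and 30.8% lower in both, with a median of 0.04. Genes averaging at least 5 FPKM, as each of the 9 did, had a median of 0.105. Scaled to all assigned reads, the median of the 9 was 0.04 and that of all genes −0.05. Differences of at least 0.5 on the log2 scale in both libraries were found for FTL and TFRC, 2 of the 9, and for 2.48% of all genes tested in the upward direction. That size was set with the values known. Counted over all genes tested, 140 genes including FTL were higher by at least FTL's smaller difference of 0.64, and 258 including TFRC by at least TFRC's of 0.53.

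Abundant genes as a group were mostly higher in the knockdown libraries. Of 146 genes averaging at least 200 FPKM, 113 had both knockdown values above the control and 14 had both below, with median log2 differences of 0.14 and 0.16. Within these 146, only FTL and PRDX1 had a smaller difference of at least FTL's. PRDX1, a peroxide-reducing enzyme named here after its values were seen, had a fitted log2 difference of 0.83 ± 0.12 (SE; limma adjusted p = 0.274). FTH1, with a mean of 280.3 FPKM, is in the same abundance group.

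**Figure D3:**
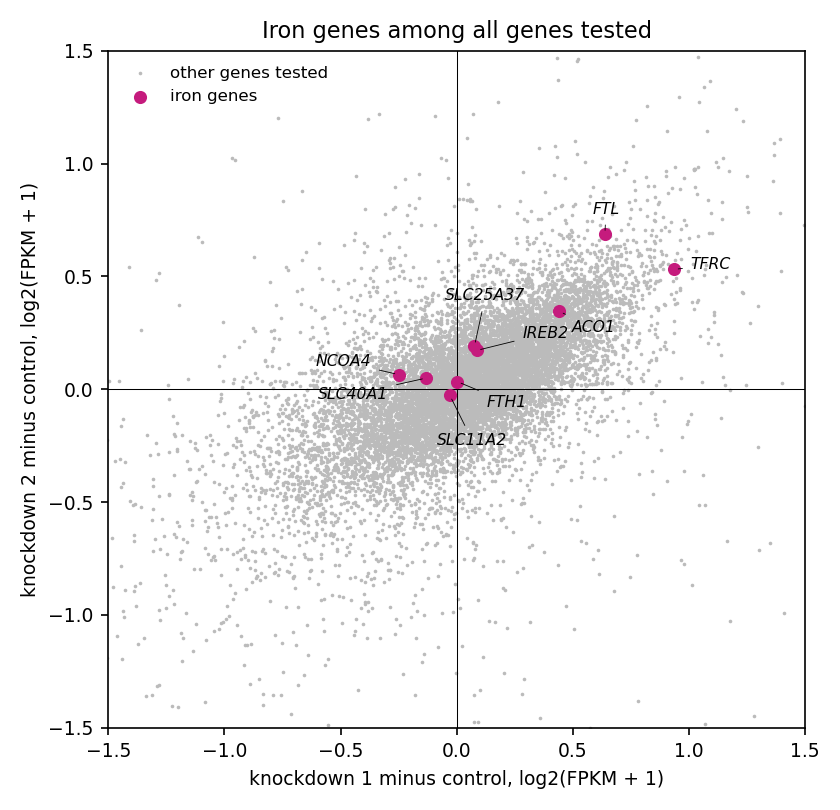
Difference from the control in log2(FPKM + 1), knockdown 1 on the horizontal and knockdown 2 on the vertical axis, for the 9 iron genes (large points, named) and all other genes tested (small grey points); 162 genes beyond 1.5 on either axis are not drawn. Both axes share the 1 control library; FTL and TFRC lie in the upper right, TFRC further along the knockdown 1 axis, and FTH1 and SLC11A2 lie near the origin.

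The protein-coding genes whose pattern over the 3 libraries was most like that of FTL, by Euclidean distance of the 2 log2 differences among 9896 genes, were SELENOW, HIST1H3A and NDUFB7. The distances were 0.0187, 0.0291 and 0.0496. SELENOW, a small selenoprotein gene, was at 3.90, 6.70 and 6.81 FPKM. NDUFB7, which encodes a subunit of respiratory complex I, was at 105.3, 165.6 and 164.3. HIST1H3A was at 0.43, 1.25 and 1.35 FPKM. The added 1 shrinks the differences of low genes. The ratio to the control was therefore larger than that of FTL for HIST1H3A, and to a lesser degree for SELENOW. HIST1H3A is also one of many near-identical histone genes, so its reads are uncertain.

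Other library features moved beside the FTL and TFRC values, and their part in them was not tested. Reads on sense intronic genes were 553.2, 448.5 and 475.5 RPM (reads scaled to library size). The 20 erythroid markers summed to 612, 793 and 800 FPKM, with 0 of them at 0 in every library. Of the 14 that averaged at least 1 FPKM, 8 were higher in both knockdown libraries and 3 lower in both, with a median log2 difference of 0.25. The globin genes HBA1 (22.9, 90.2 and 74.8 FPKM) and HBZ (65.7, 109.4 and 133.0) were among those higher. GATA1 and the red cell haem synthesis gene ALAS2 (11.2, 6.99 and 9.13) were among those lower.

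Other genes of iron handling were taken from 8 lists chosen by function, which hold 98 genes. Of these, 75 were tested, 44 of them higher in both knockdown libraries and 13 lower in both, with a median log2 difference of 0.11 against 0.04 for all genes tested. The background median was 0.06 for protein-coding genes and 0.105 for genes averaging at least 5 FPKM. Over all genes tested, 42.5% were higher in both and 30.8% lower in both, the background for each list below. By limma 0 passed, and by limma-voom 1 did, as higher, where 0.206% of all genes were called higher by that method. That gene was ID1, a transcriptional target of the bone morphogenetic protein signal that also controls hepcidin. ID1 was at 12.4, 31.1 and 22.2 FPKM, with a log2 difference of 1.02 ± 0.24 (SE; limma adjusted p = 0.403) and a limma-voom adjusted p of 0.0342.

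In the list of export and systemic control, 4 of 9 genes were tested, 2 higher and 2 lower in both libraries. HEPH, a membrane ferroxidase that works with ferroportin, was at 20.8, 10.7 and 14.7 FPKM. Both knockdown values were below the control, with a log2 difference of −0.68 ± 0.23 (SE; limma adjusted p = 0.495). ERFE, the erythroid hormone that lowers hepcidin, was at 3.65, 1.67 and 2.58 FPKM, and was named after its values were seen. Hepcidin itself (HAMP), the plasma ferroxidase CP and BMP6 were below the filter.

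Genes of iron-sulfur cluster assembly were mostly higher in both knockdown libraries, by small amounts. Over all genes tested, 42.5% were higher in both and 30.8% lower in both. Genes averaging at least 5 FPKM had a median log2 difference of 0.105. In the mitochondrial list 19 of 20 were tested, with 15 higher in both, 1 lower in both and a median of 0.12, near that background. BOLA3, which acts late in cluster transfer, was at 9.40, 14.1 and 14.8 FPKM (log2 difference 0.57), and the co-chaperone gene HSCB at 1.74, 2.46 and 2.69 (0.38). In the cytosolic list all 9 were tested, with 7 higher in both, 0 lower in both and a median of 0.21. Its genes with the lowest p were NUBP2, a scaffold subunit, at 15.6, 21.9 and 21.4 FPKM, and CIAO2A, a targeting factor linked to ACO1 maturation, at 20.0, 25.3 and 27.0. None of these 4 passed by limma (adjusted p = 0.476, 0.624, 0.534 and 0.584). Scaled to all assigned reads, the medians of the lists were 0.05 and 0.10, beside −0.05 for all genes. Under quantile normalization they were 0.16 and 0.04, beside 0.02 for all genes.

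Of the 15 tested haem uptake, export and breakdown genes with the regulators of HMOX1, 10 were higher in both and 2 lower in both, with a median of 0.14. KEAP1, the adaptor that marks NRF2 for degradation, was at 26.8, 35.7 and 31.7 FPKM. The list's median was 0.01 under quantile normalization. Of 8 tested transferrin cycle and uptake genes, 3 were higher in both and 2 lower in both (median 0.07, or −0.03 scaled to all assigned reads). SNX3, which returns the transferrin receptor to the cell surface, was at 45.9, 52.7 and 53.1 FPKM, and the lysosomal iron channel MCOLN1 at 4.91, 6.85 and 5.46.

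Of 9 tested genes of ferritin loading and turnover, 2 were higher in both and 5 lower in both (median −0.05). The higher pair was the iron chaperone PCBP1, at 108.4, 153.9 and 124.4 FPKM, and the glutaredoxin GLRX3, at 18.2, 23.7 and 23.5. Mitochondrial ferritin (FTMT) was listed at 0 in every library. In the list of sensing and turnover of the iron regulatory proteins, all 7 were tested, with 3 higher in both and 0 lower in both (median 0.05, or −0.04 scaled to all assigned reads). RBX1, a subunit of the ubiquitin ligase that removes IREB2 protein, was at 12.4, 20.2 and 18.1 FPKM (log2 difference 0.58), and SKP1 of the same ligase at 11.0, 14.5 and 13.0 (0.30). Of 5 other transcripts with a known iron-responsive element, 2 were higher in both and 1, ALAS2, was lower in both.

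**Figure D4:**
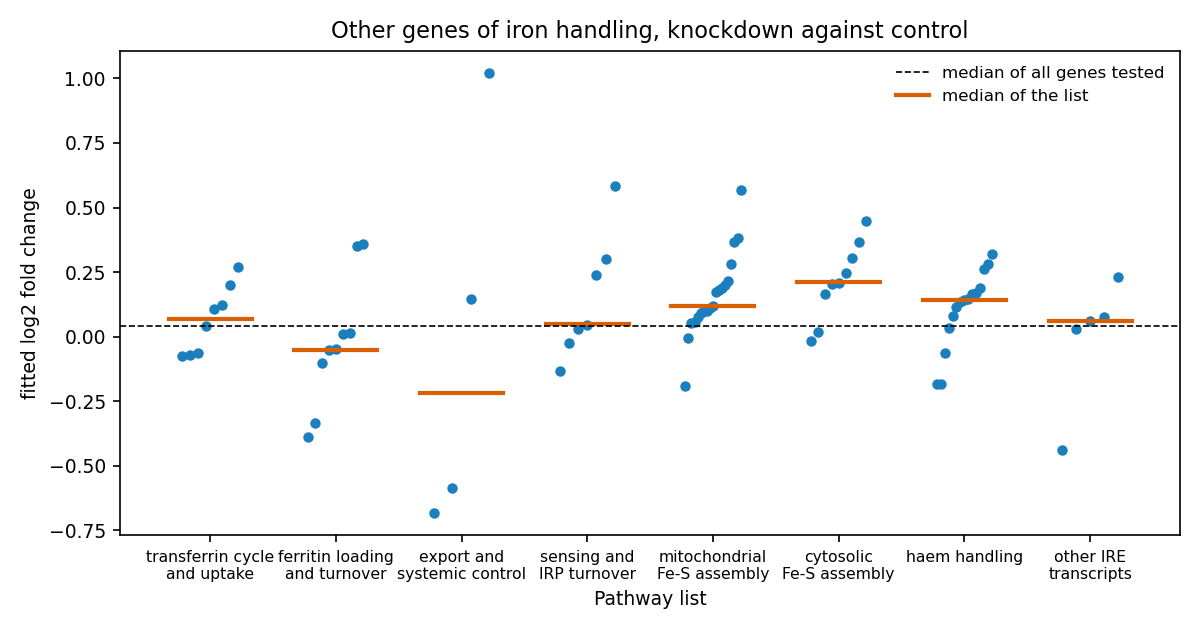
Fitted log2 fold change of each tested gene (points) in the 8 lists of iron handling, with the median of each list (thick line) and of all genes tested (dashed line, 0.04). The medians run from −0.22 for export and systemic control, with 4 genes, to 0.21 for cytosolic iron-sulfur cluster assembly, and the highest point is ID1 at 1.02.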

How the data were processed

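The authors deposited FPKM values, 1 per gene and library, per the file headers. Per the submitters' processing notes, BWA, Bowtie and hg19 were used, in roles not given; how reads were counted is likewise not given in the sources. All 58735 identifiers matched GENCODE release 29 (GRCh38), from which symbols and coordinates were taken. Multiplied by release 29 exon lengths, 100% of the values above 0 fell on whole multiples of a library's step (tolerance 0.05), which gave reads per gene. The divisors equalled median-of-ratios factors (1.0446, 0.9629 and 1.0061 of the geometric mean total), so the deposited FPKM already carry that scaling. The median-of-ratios alternative recomputed the factors on the genes tested alone.

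The fit was limma-trend (limma 3.58.1, R 4.3.3) on log2(FPKM + 1), a scale that understates changes of low genes. Genes averaging at least 1 FPKM entered, with Benjamini-Hochberg adjustment over all 12640. The fit was also run on simulated data, with changes larger than those of the iron genes and the same spread in every library. That run cannot show how the fit handles smaller changes or a lone control of unknown spread. Alternatives were other scalings, filters and pseudocounts, no trend, limma-voom (mean of at least 10 reads) and each knockdown library alone. A quasi-likelihood test, foreseen for counts, was not used.

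Named genes are the 10 members, the 2 with the lowest p of each list and any that passed, ferritin pseudogenes averaging at least 10 reads, the 3 genes nearest FTL, and TRAF7; 1 of these is not reported here. Members and lists were chosen with earlier results of these data known. Marker lists also covered lymphoid (9.67, 6.28 and 8.48 FPKM summed) and stromal and epithelial cells (57.0, 45.1 and 54.4).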

Additional observations from a re-analysis of the deposited data

How the results depend on the processing

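Over all genes tested, limma called 0 genes, against 3 with a mean of at least 5 FPKM, 13 among protein-coding genes and 130 by limma-voom on recovered reads. Among the iron genes the same 3 settings called 1 (FTL), 1 (FTL) and 2 (FTL and TFRC), where the main setting called 0. The cause of these differences was not tested. FTL, TFRC, ACO1, IREB2 and SLC25A37 kept a value above 0 in all 14 alternatives, and SLC11A2 one below 0. Filter, trend and pseudocount settings cannot turn a sign that both knockdown libraries share, so mainly the scalings bear on this. FTH1 turned from 0.02 to −0.034 with median-of-ratios factors recomputed on the genes tested, −0.221 under quantile normalization and −0.087 when scaled to all assigned reads. Without knockdown replicate 1, SLC40A1 was at 0.050 and NCOA4 at 0.065; without knockdown replicate 2 they were at −0.130 and −0.249. A fit without either knockdown library has no residual degree of freedom and gave values only. No paired analysis was possible because the control group has 1 library. Depth limits HMOX1, at 0 reads, and the low pathway genes under the filter. The single control library limits every comparison.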
